A study of Mus musculus with 14 samples.

Results

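The histone variant H2A.Z was mapped by chromatin immunoprecipitation and sequencing in mouse small intestinal epithelium at 4 stages, and the regions described here are those with an H2A.Z peak in adult intestinal stem cells (ISC) and at no other stage. Peaks of all 8 deposited lists were merged wherever they overlapped or touched, which gave 45028 regions, of which 43299 lay on chromosomes 1 to 19 and were under 3000 bp wide. A region was kept when both ISC libraries had a peak in it and none of the 6 libraries of other stages did. This left 3063 regions, which made up 7.07% of the 43299 and 13.4% of the 22805 regions with a peak in both ISC libraries. The regions were chosen by the peak calls themselves, in all 8 libraries, so their presence in ISC is the definition of the set and not a result.

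All animals were of mixed C57BL/6 CD1 strain. The ISC were sorted as cells with high Lgr5-EGFP signal from adult Lgr5EGFP-Cre-ERT males of postnatal day 60, so the stem cell identity rests on a reporter for 1 gene. Enterocytes came from mice of the same line, sex and age and were sorted as EpCAM+ CD31- CD45- cells, a gate that holds no marker of the enterocyte itself. The embryonic samples were EpCAM+ CD31- CD45- cells of the small intestine, taken at E12.5 or E14.5, with no genotype given. Each stage had 2 H2A.Z libraries, which the series text calls biological duplicates without saying whether they came from separate animals or pools.

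H2A.Z replaces the core histone H2A in a minority of nucleosomes, where the SRCAP chromatin remodelling complex exchanges one for the other. It is typical of the nucleosomes beside active or poised transcription starts and of enhancers, and its presence marks regulatory DNA without telling active from silent genes. Lgr5+ ISC are the dividing cells of the crypt base. They depend on Wnt signals. Their daughters mature into absorptive enterocytes as they leave the crypt for the villus. The positions are in build mm9, and genes and sequences at them were not analysed here, so the sorted cells were not checked against the loci of their marker genes.

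Between 27835048 and 41274126 tags stood behind a list, and the lists held 6136 to 32131 peaks. The ISC lists were the longest, with 26925 peaks in replicate 1 and 32131 in replicate 2, although enterocyte replicate 2 was the most deeply sequenced. Both ISC lists were called against the same input library of 31649698 tags, so their agreement is not independent of that input, whose part in the results was not tested. The enterocyte lists likewise shared an input, of 31049250 tags, while each E12.5 and E14.5 list had its own. E14.5 replicate 2 and enterocyte replicate 1 had short estimated fragments of 71 and 67 bp, against 191 to 247 bp elsewhere. Without both of these libraries the set held 3098 regions, so they removed few regions from it.

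Peaks of 1 stage alone were also found elsewhere, in smaller numbers. Both E12.5 libraries and no other had a peak in 1977 regions (4.57% of the 43299), both enterocyte libraries in 88 (0.203%) and both E14.5 libraries in 6 (0.0139%). The order of the 4 counts was that of the shorter list of each stage, from 26925 peaks (ISC replicate 1) through 22177 (E12.5 replicate 2) and 14256 (enterocyte replicate 1) to 6136 (E14.5 replicate 2). The part of list length in the counts was not tested. With 2 libraries a stage no test of these counts was made.

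The 3063 regions had neighbours on both sides of the rule. A peak in ISC replicate 2 and in no other library was present in 5189 regions, and a peak in ISC replicate 1 alone in 1494. These single-library regions had a median fold of 2.73 and 2.54, where fold is the enrichment over the local background that the peak caller wrote for each peak. Had ISC replicate 2 alone been asked for, 8357 regions would have been counted, and 4631 with ISC replicate 1 alone. On the other side, 2930 regions had a peak in both ISC libraries and in exactly 1 other. Enterocyte replicate 2 was that other library in 1927 of them (65.8%), followed by E12.5 replicate 1 in 677, E12.5 replicate 2 in 151 and E14.5 replicate 1 in 141. Enterocyte replicate 1 accounted for 31 and E14.5 replicate 2 for 3. The absence of a peak in enterocyte replicate 2 therefore shaped the set more than that of any other single library. Without that library, 5004 regions would have been counted as ISC-only.

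Some regions lay close to the limits of the rule. The caller gave every peak a −log10 q, its evidence against the input, and the lists reach down to 1.00 to 1.06, below the 1.30 of the q cutoff that their headers state. The ISC-only regions with the lowest value were chr7:75841362-75842000, with 1.01 in ISC replicate 2, chr7:73807735-73808301, with 1.02 in ISC replicate 2, and chr19:6156974-6157496, with 1.03 in ISC replicate 1. Just outside lay chr7:117300517-117301280, chr1:78192739-78193691 and chr2:167630546-167631574. These had 1 further peak of −log10 q 1.01, 1.03 and 1.05, in E12.5 replicate 1, enterocyte replicate 2 and E12.5 replicate 1. At the width limit, 12 regions of the same presence were 3000 bp or wider. The narrowest of these were chr1:53899969-53902972, chr13:63173131-63176175 and chr2:3619579-3622715, at 3004, 3045 and 3137 bp.

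H2A.Z enrichment in the ISC-only regions was modest in both stem cell libraries. In ISC replicate 1 the fold ran from 2.01 to 5.38, with a median of 2.71 and quartiles of 2.52 and 3.01. In ISC replicate 2 it ran from 2.09 to 5.93, with a median of 2.97 and quartiles of 2.69 and 3.33. The 2 libraries gave the set a low place in their own lists. The median region stood at the 25.2 percentile of fold among all peaks of ISC replicate 1 and at the 34.9 percentile of ISC replicate 2. The median −log10 q was 2.56 and 2.99, and the pileup, the height of stacked fragments, had a median of 17.9 and 18.5. In the complete lists the median fold was 3.27 and 3.28 and the median pileup 26.1 and 23.3.

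**Figure D1:**
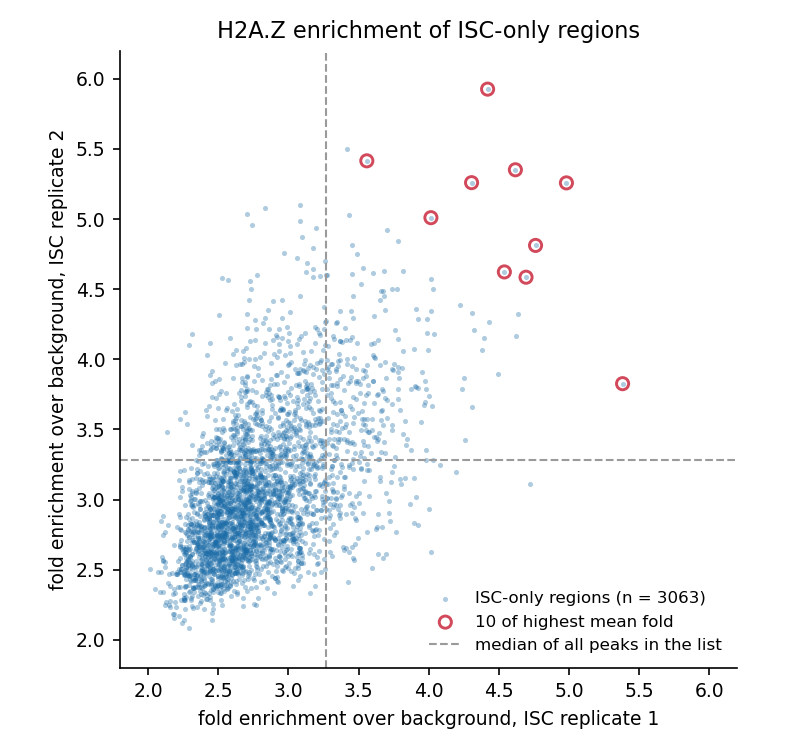
Fold enrichment over background of the 3063 ISC-only regions, with ISC replicate 1 on the x axis and ISC replicate 2 on the y axis. Points are regions, circles mark the 10 of highest mean fold, and dashed lines give the median of all peaks of each list, 3.27 and 3.28. Most points lie at the lower left, where 2097 regions were at or below both medians.

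The plot of fold in both ISC libraries shows that 2097 regions (68.5%) lay at or below the median fold of both lists and 254 (8.29%) above both. A fold of at least 3 in both libraries was seen in 590 regions, and a fold of at least 4 in 20. Over all 22805 regions of both ISC libraries the median fold was 3.39 in replicate 1 and 3.59 in replicate 2. Above the 75 percentile of both lists were 14 of the regions and above the 90 percentile of both were 0, while 15 were above the 90 percentile of 1 list. The fold was higher in ISC replicate 2 in 2256 regions (73.7%). The 2 values differed by more than 1.5 times in 53 regions. Across the 3063 regions the fold in one library followed that in the other with a Spearman rho of 0.52, against 0.86 over the 22805 regions of both ISC libraries and 0.84 over the 3751 of all 8 libraries. These correlations are across regions that share libraries and an input, and the ISC-only regions span a narrow range of fold.

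The enrichment in ISC was graded by how many other libraries shared a region. Sharing rests on the same peak calls that chose the set, so the grading is a description. The step of 6 other libraries needs a peak in E14.5 replicate 2, whose list held 6136 peaks. In ISC replicate 1 the median fold was 2.71 with no other library, 2.80 with 1, 2.90 with 2, 3.05 with 3, 3.45 with 4, 4.15 with 5 and 4.77 with all 6. ISC replicate 2 gave the same order, from 2.97 with none through 3.27 with 3 to 4.78 with 6. The quartile ranges of neighbouring steps overlapped throughout. Between none and 6 other libraries they were apart, since the upper quartile was 3.01 for ISC-only regions and the lower quartile 4.16 for regions of all 8 libraries in ISC replicate 1. The width of single peaks followed the same order. In ISC replicate 1 the median peak was 451 bp in ISC-only regions and 1464 bp in regions of all 8 libraries, and in ISC replicate 2 it was 526 and 1538 bp.

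**Figure D2:**
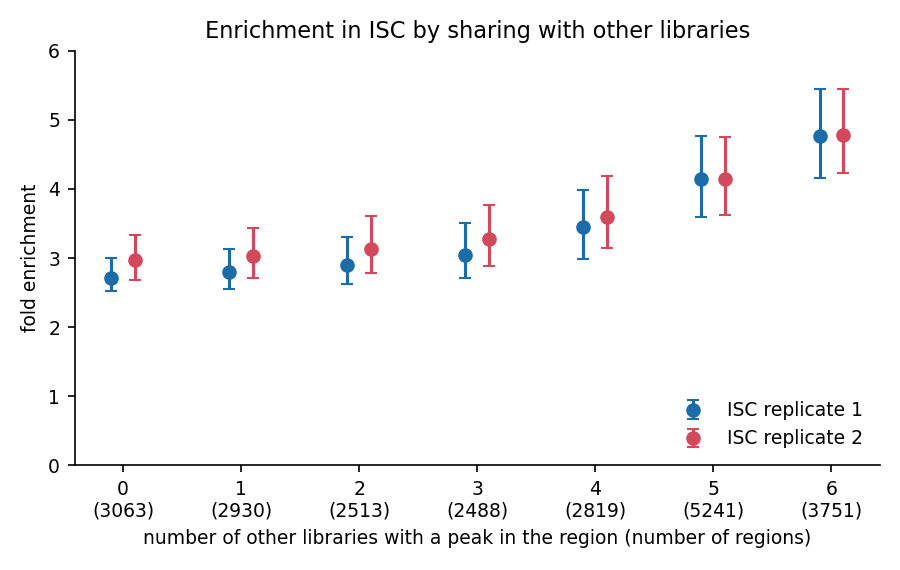
Fold enrichment in the ISC lists (y axis) of regions with a peak in both ISC libraries, by the number of other libraries with a peak there (x axis, number of regions in brackets). Points are medians and bars run from the lower to the upper quartile over regions. The ISC-only regions, at 0, have medians of 2.71 and 2.97, the lowest of the 7 steps in each library.

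Ranked by their mean fold percentile, the 22805 regions of both ISC libraries showed where ISC-only regions lay. They were split into 10 equal bins. In the lowest bin 720 regions (31.6%) were ISC-only, in bin 2 there were 690 (30.2%) and in bin 3 there were 632 (27.7%). Bin 5 held 294 (12.9%), bin 8 held 25 and the highest bin 1 of 2281 regions. Regions of all 8 libraries had nearly the reverse order, from 0.219% of the lowest to 59.6% of the highest bin. Both classes are defined by peak calls, so these shares are a description too.

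**Figure D3:**
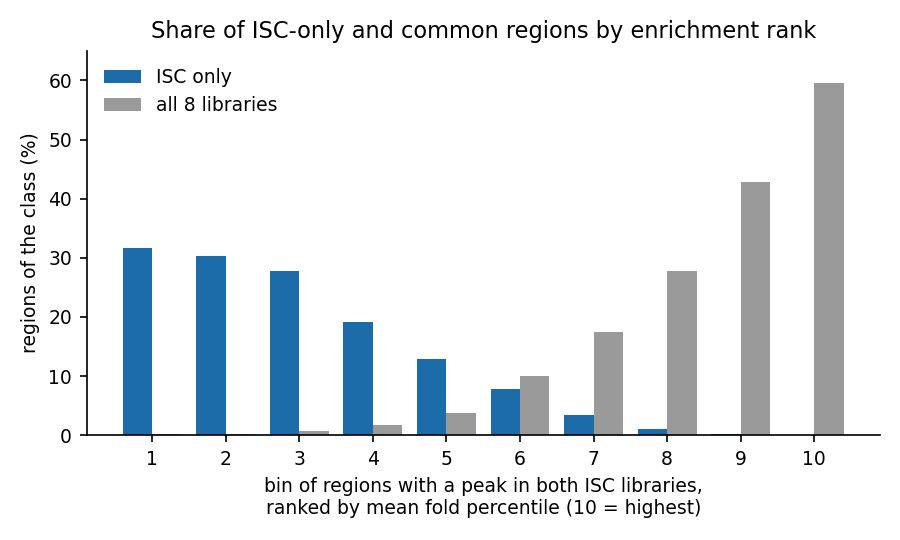
Share (%, y axis) of ISC-only regions and of regions with a peak in all 8 libraries within each of 10 equal bins of the 22805 regions that had a peak in both ISC libraries, ranked by mean fold percentile (x axis). ISC-only regions make up 31.6% of the lowest bin and 0.0438% of the highest.

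Which regions were ISC-only turned on the threshold for peaks. Of the 3063 regions, 1839 had a −log10 q of at least 2 in both ISC libraries, 152 (4.96%) of at least 5 and 4 (0.131%) of at least 10. Over all 22805 regions of both ISC libraries the median −log10 q was 6.46 in replicate 1 and 6.67 in replicate 2. The shares of those regions that pass each threshold are not given here. When a −log10 q of at least 10 was asked of every list, 2204 regions were ISC-only, but 4 of them overlapped a region of the set. With the 6136 strongest peaks of each list, 113 regions were ISC-only and 0 of them overlapped one. These stricter sets hold regions with weaker peaks of other stages by construction, and no conclusion about absence of H2A.Z can be read from them. The set described here is that of regions in which no other deposited list held a peak.

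The 10 regions of highest mean fold over both ISC libraries ranged from 4.49 to 5.17 and were 493 to 1671 bp wide. They stood at the 59.3 to 93.5 percentile of fold in ISC replicate 1 and at the 68.0 to 97.5 percentile in replicate 2, so that none led either list. The first was chr5:105829219-105829829, with a fold of 4.42 in ISC replicate 1 and 5.93 in replicate 2. The second, chr1:13042154-13042646, had 4.98 and 5.26 and a −log10 q of 11.9 and 12.3. It stood at the 89.3 and 93.4 percentile of fold in the 2 lists.

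A fold of 4.62 and 5.35 was recorded at chr1:138581784-138582667, with a pileup of 30.7 and 32.6. At chr6:42177358-42178019 the values were 4.76 and 4.81. The region chr10:24075896-24077566 was wider, at 1671 bp, with a fold of 4.31 and 5.26. In these regions, the first 5, ISC replicate 2 gave the higher fold, as in 8 of the 10.

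The exceptions were chr11:82523720-82524339, with 4.69 in ISC replicate 1 and 4.59 in replicate 2, and chr3:9646849-9648518, with 5.38 and 3.83. The latter had the highest fold of the whole set in ISC replicate 1 and stood at the 68.0 percentile in replicate 2. The remaining 3 were chr5:28784401-28785854, with 4.54 and 4.62, chr1:132318886-132319992, with 4.02 and 5.01, and chr1:82191421-82192379, with 3.56 and 5.42. Chromosome 1 thus held 4 of the 10, and 201 of all 3063 ISC-only regions. With 10 regions picked by rank, no concentration was read from this.

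These leading regions differed in how isolated they were from H2A.Z of other stages. The nearest peak of another stage lay 2.42 kb from chr3:9646849-9648518, at E12.5, in a region of 1 library. It lay 4.33 kb from chr5:28784401-28785854, in enterocytes, in a region that 4 libraries shared. For chr1:82191421-82192379 it was an E12.5 peak 86.7 kb away, in a region of all 8 libraries. For chr1:13042154-13042646 it was an E12.5 peak 40.6 kb away, in a region that 3 libraries shared. For chr5:105829219-105829829 the nearest was 14.2 kb away at E14.5, in a region that 7 libraries shared.

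A typical member was chr5:123034128-123035049, whose mean fold of 2.86 was the median of the set. It had a fold of 2.81 in ISC replicate 1 and 2.91 in replicate 2, a −log10 q of 2.29 and 2.21 and a pileup of 14.6 and 14.4. The nearest peak of another stage lay 28.7 kb away, in a region of all 8 libraries. It therefore stood at the 30.5 and 32.0 percentile of fold, below most peaks of both lists.

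ISC-only regions were narrow beside all 22805 regions of both ISC libraries, whose median width was 1263 bp. Their widths ran from 247 to 2916 bp with a median of 643 bp and quartiles of 473 and 963.5 bp, and 2348 of them (76.7%) were under 1000 bp. Together they covered 2.39 Mb. The other classes of a single stage had lower median widths. These were 561 bp in the 1977 E12.5-only, 543.5 bp in the 88 enterocyte-only and 325 bp in the 6 E14.5-only regions. Merging peaks of more lists can only widen a region, so narrowness was not read as a trait of ISC. The 3 narrowest were chr19:17489636-17489882, chr1:57262356-57262604 and chr1:138806898-138807146, at 247, 249 and 249 bp. In these each ISC peak was 247 bp in replicate 1 and 228 bp in replicate 2, which are the fragment sizes that the caller estimated and so the smallest peaks it could list. The widest lay on chromosome 18, at 2916 bp, followed by chr2:6017421-6020291 and chr4:49165718-49168536, at 2871 and 2819 bp.

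The fold differed little with the width of a region. The median fold in ISC replicate 1 was 2.74 in the 908 regions under 500 bp, 2.71 in the 1440 from 500 to under 1000 bp, 2.69 in the 647 from 1000 to under 2000 bp and 2.76 in the 68 wider ones. In ISC replicate 2 it was 2.97, 2.98, 2.95 and 2.95. These steps are smaller than the difference of 0.255 between the median fold of the 2 libraries.

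The rule makes the peaks of the ISC libraries overlap or touch within a region, so their overlap is given as a description. The median length shared was 356 bp. The median share of the shorter peak was 99.8% and the median share of the region 63.7%, each taken over the regions separately. The shorter peak lay wholly inside the longer in 1523 regions (49.7%), and in 140 (4.57%) less than 50% of the shorter peak was shared. The wider peak was that of ISC replicate 2 in 1807 regions (59.0%). In 12 regions 1 of the libraries had more than 1 peak.

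The position of the regions was not used to choose them, apart from the rule that no peak of another stage might touch them. The nearest peak of any other stage lay a median of 11.4 kb away, with quartiles of 4.60 and 28.1 kb, and at the closest 10 bp away. It lay within 1 kb of 74 regions and within 5 kb of 832 (27.2%). For 404 regions it was more than 50 kb away and for 129 more than 100 kb. No such distance is given for another class of regions, so these values were not read as near or far. The fold hardly differed with this distance. In ISC replicate 1 the median was 2.71 within 5 kb, 2.71 from 5 to 50 kb and 2.74 beyond, and in replicate 2 it was 2.93, 2.97 and 3.03.

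Taken library by library, E12.5 replicate 1 came closest, with a median of 17.1 kb and a peak within 5 kb of 19.1% of the regions. Enterocyte replicate 2 followed with 20.0 kb and 17.1%, E12.5 replicate 2 with 22.5 kb and 14.9%, and E14.5 replicate 1 with 28.6 kb and 11.6%. Enterocyte replicate 1 had a peak within 5 kb of 7.97% and E14.5 replicate 2 of 2.71%. The 2 libraries farthest away, E14.5 replicate 2 and enterocyte replicate 1, had the fewest peaks, so this order was not read as one of stages.

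**Figure D4:**
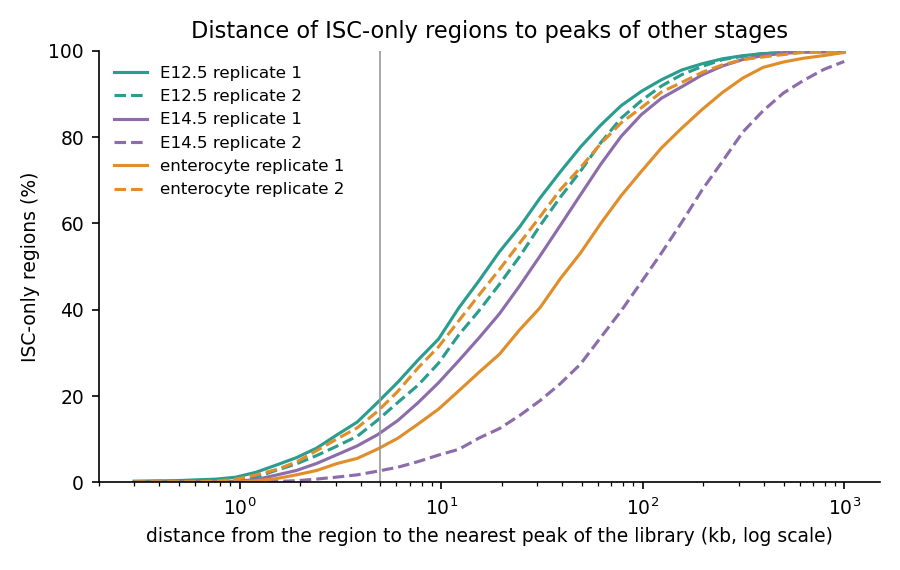
Cumulative share (%, y axis) of the 3063 ISC-only regions whose nearest peak of a given library lies within the distance on the x axis (kb, log scale). Each line is a library of another stage, and the vertical line marks 5 kb. The highest line there is E12.5 replicate 1, at 19.1%, and the lowest E14.5 replicate 2, at 2.71%.

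Some ISC-only regions lay near each other. Another ISC-only region was within 50 kb of 1002 members (32.7%). This share depends on how many regions are counted, and was 57.2% without ISC replicate 1 and 1.77% with the strongest peaks of every list. The same target was within 50 kb of 29.9% of the 782 regions with peaks in both ISC and both enterocyte libraries alone, 21.8% of the 794 of both ISC and both E12.5 libraries alone, 17.9% of the 1977 E12.5-only regions and 16.7% of the 3751 regions of all 8 libraries. The directly neighbouring region on the chromosome was ISC-only on 10.5% of the sides of ISC-only regions, against 8.89%, 7.87%, 5.24% and 5.67% in these 4 classes and 7.07% of all 43299 regions. By both measures the adult class of ISC and enterocytes came next to the ISC-only regions themselves. That class needs a peak in enterocyte replicate 1, a library of short fragments with 14256 peaks. This order was therefore not read as one of stages. These shares describe regions that are not independent of each other, and no test was made of them.

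Regions shared by all 8 libraries lay within 5 kb of 2.19% of ISC-only regions and of 2.13% of one another, so close neighbours of this kind were about as rare for both. The median distances differed more. The nearest region of all 8 libraries was a median of 171 kb from an ISC-only region, 128 kb from regions of ISC and enterocytes, 138 kb from those of ISC and E12.5 and 98.1 kb from others of its own kind. It was 218 kb from E12.5-only regions. No such region lay within 100 kb of 64.2% of ISC-only regions, against 50.0% of the regions of all 8 libraries and 72.4% of E12.5-only regions. The class of all 8 libraries holds regions under 3000 bp and needs a peak in E14.5 replicate 2, whose list held 6136 peaks. It leaves out wider regions and the 5241 with a peak in both ISC and 5 other libraries. These distances are therefore not distances to all widely shared H2A.Z.

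Every autosome carried ISC-only regions, from 107 on chromosome 18 to 227 on chromosome 2. As a share of the regions with a peak in both ISC libraries they ran from 10.6% on chromosome 7, with 156 of 1466, to 16.0% on chromosome 16, with 132 of 827. Chromosomes 6 and 14 followed chromosome 16 closely, with 15.8% each.

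Most ISC-only regions stood alone, but some formed groups. With neighbours at most 50 kb apart, 2061 regions had no other within reach, 712 formed 356 pairs and 201 formed 67 groups of 3. Groups of 4 or more numbered 21 and held 89 regions (2.91%). There were 17 groups of 4, 3 of 5 and 1 of 6.

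The group of 6 spanned 126 kb at chr14:76585126-76711478. Its regions were 411 to 1956 bp wide, and their fold was 2.40 to 3.05 in ISC replicate 1 and 2.44 to 3.15 in replicate 2, so none was a strong peak. The strongest in replicate 2 was chr14:76587734-76589050, with 2.91 and 3.15. The span held 7 further regions, all with a peak of another stage, and 0 of them in all 8 libraries. An E12.5 peak was present in 6 of the 7, and 2 were E12.5-only, with a peak in both E12.5 libraries and in no other. Some of the rest held a peak of E12.5 replicate 1 alone. The share of all regions with an E12.5 peak was not counted, so 6 of 7 is a description. Enterocyte replicate 2 had a peak in 1 and enterocyte replicate 1 in none. The map of this group shows E12.5 peaks standing between the ISC-only regions. Each ISC-only region of the group lay 1.65 to 22.2 kb from the nearest peak of another stage.

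**Figure D5:**
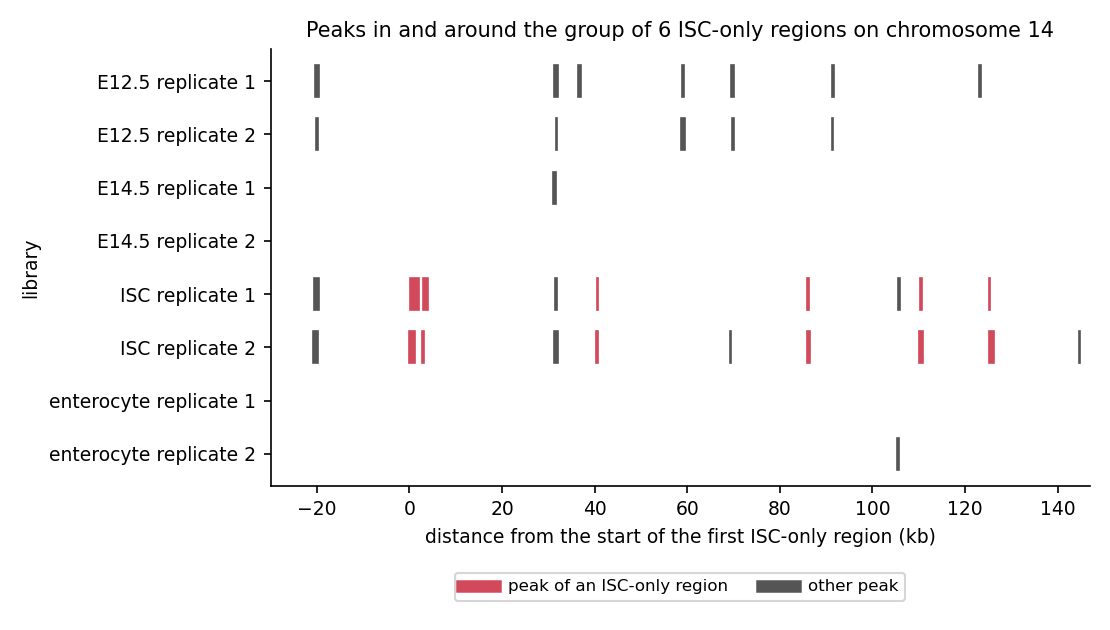
Peaks of the 8 libraries (rows) in and around the group of 6 ISC-only regions on chromosome 14, against the distance in kb from the start of the first (x axis). Red bars are peaks of ISC-only regions and grey bars all other peaks, drawn to scale with a thin outline. The ISC-only peaks stand in both ISC rows, while the E12.5 rows hold peaks at other positions and E14.5 replicate 2 and enterocyte replicate 1 hold 0 in the span of 126 kb.

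Of the 3 groups of 5, chr1:87847305-87935480 spanned 88.2 kb. Its fold reached 3.46 in ISC replicate 1 and 3.29 in replicate 2, and the region chr1:87870883-87871936 was its highest in both libraries. Only 1 of its 3 further regions had a peak of another stage, and that one was in all 8 libraries, while the other 2 were peaks of a single ISC library. The group chr14:35349395-35437209 spanned 87.8 kb, with a fold of 2.45 to 3.17 and 2.66 to 3.03. Of its 5 further regions, 4 had a peak of another stage and 1 of them a peak in all 8 libraries.

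Among 3 further classes of ISC regions, those of ISC and E12.5 alone, of ISC and enterocytes alone and of all 8 libraries, the first was nearest to the ISC-only regions in fold. Its 794 regions had a median fold of 2.81 and 3.05 in the 2 ISC libraries, against 2.71 and 2.97, and a median peak of 558 and 570.5 bp, against 451 and 526 bp. The 782 regions of ISC and enterocytes had 3.04 and 3.26, with peaks of 854 and 829.5 bp. The differences in fold from the ISC and E12.5 class, under 0.1 in each library, are smaller than the difference between the ISC libraries. The enterocyte class needs a peak in enterocyte replicate 1, a library of short fragments with 14256 peaks. Regions with exactly 1 other library had 2.82 and 3.05 for enterocyte replicate 2 (1927 regions) and 2.94 and 3.50 for enterocyte replicate 1 (31). They had 2.74 and 2.95 for E12.5 replicate 1 (677) and 2.77 and 3.04 for E12.5 replicate 2 (151). The order of the classes was therefore not read as an order of stages. The E12.5-only regions occupied a like place in their own lists, at the 29.6 and 27.6 percentile of fold, with median peaks of 469 and 399 bp. Fold is scaled within a list, so these were not compared as levels between stages.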

How the data were processed

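H2A.Z ChIP-seq libraries and 6 inputs were described by the labels. The deposited lists hold peaks per library, called by the authors against input in the broad mode of MACS 2.1.0.20140616, per the file headers. The headers state a q cutoff of 0.05, which is a −log10 q of 1.30, but every list holds peaks below it, down to 1.00 to 1.06. The cutoff that decided which broad peaks were listed is therefore not given in the sources used here. The fold bounds of the model were 10 and 30, and duplicate reads had been removed. Build mm9, SAMtools 1.2, Bowtie 1.1.2 and bcl2fastq 1.8.4 are listed in the submitters' processing notes. The pileup is a coverage signal, the −log10 p and −log10 q are evidence against input, and the fold enrichment is a ratio to local background, all deposited by the authors and per the file headers. They were used to rank or describe peaks within a list.

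Where a list had several peaks in a region, the one of lowest p gave its values. Percentiles are ranks of fold within a complete list. Distances are edge to edge. Calculations used Python 3.11.15, pandas 2.3.3, numpy 2.4.6, scipy 1.17.1 and matplotlib 3.10.9, and the region and distance functions were tested on simulated data. The members, classes and named regions were chosen with earlier results of these data known, and the classes of other single stages, the tie break among groups of 5 by chromosome order and the splits by width and distance were added after the data were seen. Named were the 10 regions of highest mean fold, the 3 widest and 3 narrowest, that nearest the median, those just inside and outside the limits, and 3 groups of at least 4. No test between groups was made, since peak presence chose the regions and regions are not replicates. Genes, sequence motifs and promoters were not analysed here because the reference tables are of another build. Alternatives are given below.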

Additional observations from a re-analysis of the deposited data

How the results depend on the processing

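The number of ISC-only regions stayed within 1.5 times of 3063 in 12 of 17 alternatives. A like number did not always mean like regions. Of the 2204 regions with a −log10 q of at least 10 in all lists, 4 overlapped the set. Of the 2676 with at least 2 in all lists, 1839 did. Both settings are among the 12. The number was 1839 with a −log10 q of at least 2 in the ISC lists, and 113 with the 6136 strongest peaks of every list. Leaving out 1 library gave 3066 to 8357 regions. The highest count was that without ISC replicate 1. It was 5004 without enterocyte replicate 2 and 4631 when ISC replicate 2 was dropped. The median width of 643 bp was 1522 bp with a −log10 q of at least 10 in all lists, 1408 bp with the strongest peaks and 761 bp where peaks had to cover 50% of a region, and 426 to 701.5 bp without single libraries. The median fold was 4.61 and 4.67 in the 2 ISC libraries with a −log10 q of at least 10, 4.92 and 4.91 with the strongest peaks, and 2.65 to 2.75 and 2.80 to 3.00 without single libraries. The higher −log10 q and the strongest peaks raise the fold by construction. The share of 27.2% within 5 kb of another stage (95% Wilson interval 25.6 to 28.8, for counting error only) was 25.3% with a −log10 q of at least 2 and 3.27% with at least 10 in all lists. It was 9.73% with the strongest peaks, 57.7% with 50% coverage, 25.4% with no other peak within 1 kb, and 24.1 to 28.9% without single libraries. The share of 32.7% within 50 kb of another ISC-only region was 30.3% and 21.9% with a −log10 q of at least 2 and 10 in all lists, 22.9% with at least 2 in the ISC lists, 1.77% with the strongest peaks, 37.2% with 50% coverage and 32.7 to 57.2% without single libraries. Fewer regions make such neighbours rarer by construction. No paired analysis was possible because no result comes from a test. Joining peaks within 500 bp, lifting the width limit and leaving out both libraries of short fragment size moved none of the 6 values beyond the spread used. That spread was 1.5 times for the number and the Wilson interval for each share. For width and fold it was the SD between the 2 ISC lists, 53.0 bp for median peak width and 0.180 for median fold. It is a yardstick from 2 lists and regions that are not independent, and does not measure variation between replicates.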

Other observations

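The same presence, a peak in both ISC libraries and in no other, was also found in 64 regions under 3000 bp outside chromosomes 1 to 19. These were not among the 3063 regions.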
